A study of Rattus norvegicus with 9 samples.

Results

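Fibroblast growth factor (FGF) ligands and receptors of bone were followed as 8 genes, the ligands Fgf2, Fgf7, Fgf10 and Fgf18 and the receptors Fgfr1, Fgfr2, Fgfr3 and Fgfrl1. They were chosen by name, as FGF genes known in bone whose receptors signal through the kinase that one of the treatments blocks. Each name stood on 1 row of the 19085 genes in the deposited table, and all 8 passed the filter on low counts, as did 13256 genes in all. Messenger RNA was sequenced in 9 libraries from primary osteoblasts, 3 libraries in each of 3 groups, after 7 days of osteogenic induction. The cells came from the calvaria of male Sprague-Dawley rats 24 hours old and were used at first passage, although the labels give the tissue as knee. All groups received the same induction medium, high-glucose DMEM with fetal bovine serum, β-glycerophosphate, ascorbic acid and dexamethasone. The control group received this medium alone, the thrombin group also received 20 U/mL thrombin, and the PD03 group received 20 U/mL thrombin with 0.1 μM PD0325901, an inhibitor of the kinase MEK. A protocol in the labels gives the PD0325901 concentration in mM rather than μM. No library here had PD0325901 without thrombin, so PD03 against thrombin compares the inhibitor in the presence of thrombin, and PD03 against control compares both agents together with neither. The study describes the 3 libraries of a group as independent samples, and nothing in the sources used here says whether they came from separate animals.

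FGF ligands are secreted proteins that bind receptor tyrosine kinases together with heparan sulphate on the cell surface. The activated receptor phosphorylates the adaptor FRS2 and, through GRB2, SOS and RAS, switches on the RAF, MEK and ERK kinases, which induce Sprouty proteins, dual-specificity phosphatases and ETS factors that feed back on the same path. In the skeleton, activating mutations of FGFR2 cause premature fusion of the skull sutures, and activating mutations of FGFR3 cause achondroplasia by restraining cartilage growth.

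Levels are given as CPM, counts relative to the library total after scaling by the trimmed mean of M values, which compare 1 gene between libraries, and levels of different genes are compared as FPKM, which also divides by gene length. A gene was called higher or lower when the adjusted p of edgeR's quasi-likelihood test was under 0.05 and the log2 fold change passed 0.58 in size. Library totals lay between 15447832 and 19841468 counts, and the biological coefficient of variation was 4.28%. Col1a1, the main collagen of bone, took 4.18% to 5.05% of counts in control and thrombin libraries and 6.78% to 6.96% in PD03 libraries. All 8 osteoblast markers had a row, and they did not move together. Mean CPM in control, thrombin and PD03 libraries was 42.8, 51.1 and 32.1 for Runx2, 63.7, 185 and 53.1 for Spp1, and 4.25, 6.20 and 4.95 for Sp7, while Col1a2 stood highest in PD03 libraries as Col1a1 did. Alpl had 6 to 62 counts per library, Bglap 1 to 5 and Ibsp 0 to 1, so the mineralisation markers Bglap and Ibsp were at or near 0. In such bulk samples, fewer cells of a type and less RNA per cell cannot be told apart.

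Among the 8 genes, the receptor Fgfr3 and the ligand Fgf10 changed most, both with the MEK inhibitor and in opposite directions. Relative to thrombin alone, PD03 libraries had 5.45-fold more Fgfr3 and 3.08-fold less Fgf10. Against thrombin, PD03 gave 1 member called higher (Fgfr3) and 2 called lower (Fgf10 and Fgf18), where 9.61% of all tested genes were called higher and 6.31% lower. Thrombin against control gave no member called higher and 1 called lower (Fgfr3), where 2.62% and 5.44% of all tested genes were called higher and lower. PD03 against control gave 2 members called higher (Fgfr3 and Fgfrl1) and 1 called lower (Fgf10), where the shares over all tested genes were 4.90% and 4.07%. An F test of both group differences at once, without a fold cut-off, was passed by 7 of the 8 members and by 56.0% of all tested genes, Fgf2 being the member that missed it at an adjusted p of 0.12. The 3 comparisons share libraries, so their values are given side by side and not as independent results. Of all calls for PD03 against thrombin, 60.4% were higher, against 46.5% when libraries were scaled by their totals, and for PD03 against control the shares were 54.6% and 34.1%. Scaling by totals moved the median over all genes for PD03 against control to -0.12 on the log2 scale.

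**Figure D1:**
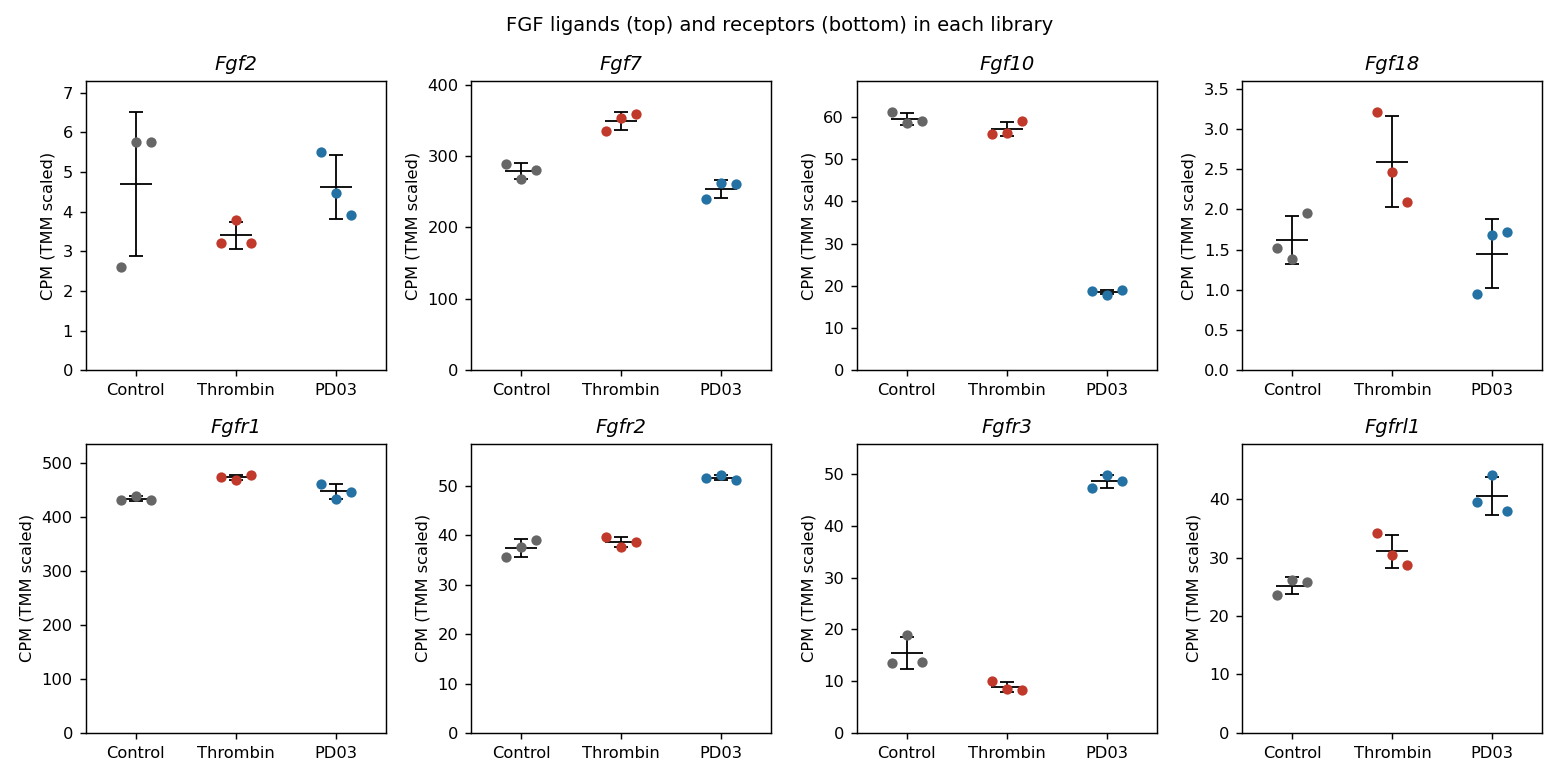
CPM of the 4 ligands (top) and the 4 receptors (bottom) in each library, with each point a library, the horizontal line the group mean and the bar 1 SD (n = 3 per group). The PD03 libraries stand at 17.9 to 19.0 CPM for Fgf10 and at 47.3 to 49.9 CPM for Fgfr3, apart from all control and thrombin libraries.

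Fgf10 (ENSRNOG00000012278) encodes a ligand that mesenchymal cells make and that acts mainly on the IIIb splice form of FGFR2 in epithelia. Its CPM was 61.2, 58.5 and 59.0 in the control libraries, 55.9, 56.3 and 59.0 in the thrombin libraries and 18.7, 17.9 and 19.0 in the PD03 libraries. Control and thrombin libraries overlapped, and every PD03 library was far below both. The group means were 59.6 ± 1.42, 57.1 ± 1.67 and 18.5 ± 0.573 CPM (SD, n = 3). PD03 against thrombin gave a log2 fold change of -1.62 (SE 0.07, edgeR adjusted p = 7.3e-24), and PD03 against control gave -1.69 (SE 0.07, edgeR adjusted p = 5.6e-24). Thrombin against control gave -0.063 with a 95% interval of -0.18 to 0.05 (edgeR adjusted p = 0.46). Fgf10 was called lower with PD03 in both comparisons under all 21 alternatives.

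Fgf7 (ENSRNOG00000009425), also known as keratinocyte growth factor, was the most abundant of the 4 ligands per length. Its CPM was 289, 267 and 280.3 in control, 335, 354 and 359 in thrombin, and 239, 262 and 261 in PD03 libraries. The 3 groups did not overlap, with thrombin highest and PD03 lowest, but the steps were small. Group means were 279 ± 10.9, 349 ± 12.5 and 254 ± 12.9 CPM (SD, n = 3). The log2 fold change was 0.32 for thrombin against control (SE 0.04, edgeR adjusted p = 1.3e-08), -0.46 for PD03 against thrombin (SE 0.04, edgeR adjusted p = 6.5e-13) and -0.14 for PD03 against control (SE 0.04, edgeR adjusted p = 0.0064). All 3 passed the adjusted p and none passed the fold threshold.

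Fgf18 (ENSRNOG00000048389), a ligand with known roles in skull and cartilage growth, was low, at 18 to 54 counts per library. Its CPM was 1.52, 1.39 and 1.96 in control, 3.21, 2.47 and 2.10 in thrombin, and 0.954, 1.68 and 1.71 in PD03 libraries. Thrombin libraries lay above all others, and control and PD03 libraries overlapped. PD03 against thrombin gave a log2 fold change of -0.85 (SE 0.29, edgeR adjusted p = 0.012) and was called lower, while thrombin against control gave 0.67 (SE 0.28, edgeR adjusted p = 0.067) and PD03 against control -0.18 (SE 0.31, edgeR adjusted p = 0.69). The call rested on few counts. It was lost without the first thrombin library (adjusted p = 0.074), without the first PD03 library (adjusted p = 0.097), when the test was set against the fold threshold itself (adjusted p = 0.50), and with deposited FPKM with 1 added, where the log2 fold change was -0.48. Over all alternatives the adjusted p lay between 0.0043 and 0.50.

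Fgf2 (ENSRNOG00000017392), a mitogen of osteoblasts, had 48 to 104 counts per library. Its CPM was 2.61, 5.75 and 5.75 in control, 3.21, 3.78 and 3.21 in thrombin, and 5.51, 4.47 and 3.92 in PD03 libraries. The first control library was the lowest of all 9, the control range covered every thrombin library, and the PD03 libraries lay just above the thrombin libraries. The log2 fold change was -0.45 for thrombin against control (SE 0.22, edgeR adjusted p = 0.13), 0.45 for PD03 against thrombin (SE 0.22, edgeR adjusted p = 0.084) and 0.0037 for PD03 against control (SE 0.21, edgeR adjusted p = 0.99). Without the first control library, thrombin against control gave -0.75 and was called lower (edgeR adjusted p = 0.0035, the lowest over all alternatives). Leaving aside fits that dropped 1 library and the test against the fold threshold, adjusted p under the alternatives lay between 0.086 and 0.32. Nudt6, known as the antisense gene of Fgf2, overlaps it in the RefSeq gene table (GRCr8), and the library kit does not mark strand, so reads of the overlap cannot be told apart. Nudt6 had 26 to 57 counts per library. Fam227b spans Fgf7 in that table and had 23 to 69 counts, against 4044 to 6450 for Fgf7. A long non-coding RNA, LOC134485848, overlaps Fgf10 and a small nucleolar RNA, LOC120097583, overlaps Fgfr1 in that table. Neither was analysed here, so their part in the reads of Fgf10 and Fgfr1 was not tested.

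**Figure D2:**
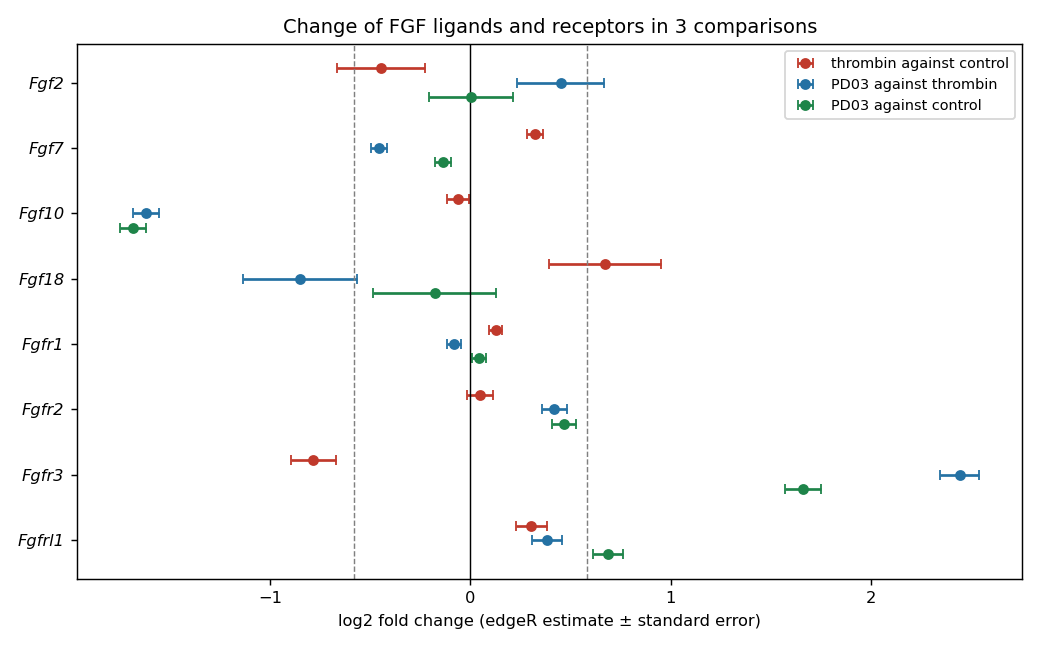
Log2 fold change of each member in the 3 comparisons, as the edgeR estimate with 1 standard error, with dashed lines at 0.58 and -0.58. Fgf10 (-1.62 and -1.69) and Fgfr3 (2.45 and 1.66) stand far outside the dashed lines in both PD03 comparisons, and the bars of Fgf2 and Fgf18 are the widest.

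Fgfr3 (ENSRNOG00000016818) encodes the receptor that restrains growth plate cartilage. Its CPM was 13.5, 18.9 and 13.8 in control, 9.99, 8.45 and 8.34 in thrombin, and 47.3, 49.9 and 48.7 in PD03 libraries. The 3 groups were fully separate, in the order thrombin, control, PD03. Group means were 15.4 ± 3.05, 8.92 ± 0.927 and 48.6 ± 1.28 CPM for control, thrombin and PD03 (SD, n = 3). PD03 against thrombin gave a log2 fold change of 2.45 (SE 0.10, edgeR adjusted p = 4.9e-24) and PD03 against control gave 1.66 (SE 0.09, edgeR adjusted p = 4.1e-19), a 3.16-fold rise. Both were called under all 21 alternatives. Thrombin against control gave -0.79 (SE 0.11, edgeR adjusted p = 2.8e-07), 1.72-fold lower, and this call was lost when the test was set against the fold threshold (adjusted p = 0.22, with 1.7e-12 to 0.22 over all alternatives).

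Markers of cartilage and of other cell types were summed in the same libraries, because Fgfr3 is also made by chondrocytes and epithelial cells. The 4 chondrocyte markers, all detected in every group, summed to 90.6 to 100.5 CPM in control, 65.0 to 70.6 in thrombin and 81.2 to 87.5 in PD03 libraries. Within this list Comp, a cartilage matrix protein, was 3.45 ± 0.654, 2.44 ± 0.306 and 11.0 ± 0.226 CPM (control, thrombin, PD03), while Col2a1, the main cartilage collagen and most of the sum, was 78.8 to 87.9, 46.6 to 51.9 and 53.2 to 59.3 CPM. Sox9, the master transcription factor of cartilage, was 7.68, 14.3 and 16.2 CPM on average, and Acan, the main cartilage proteoglycan, was 0.590, 1.43 and 1.19 CPM. In PD03 against thrombin 1 of the 4 was called higher, Comp (log2 fold change 2.16), and none lower. The list median there was 0.188, beside 9.61% and 6.31% of all tested genes called higher and lower. In PD03 against control 3 of the 4 were called higher (Sox9, Acan and Comp) and Col2a1 lower. Over all tested genes 4.90% were called higher there and 4.07% lower. In thrombin against control, where Fgfr3 was lower, Sox9 and Acan were called higher and Col2a1 lower, beside 2.62% and 5.44% of all tested genes. Acan had 7 to 33 counts per library, so its calls rested on few counts. Among the osteoblast markers Alpl, the bone alkaline phosphatase, stood in the same order of groups as Fgfr3, at 1.67 ± 0.815, 0.345 ± 0.0145 and 3.11 ± 0.636 CPM, with control and PD03 libraries overlapping. The epithelial markers with a row here, 3 of 4, summed to 6.58 to 8.52, 3.87 to 5.21 and 9.86 to 13.0 CPM, mostly Krt8. Of these, 2 were tested, Krt8 (6.88, 4.08 and 10.1 CPM on average) and Krt18 (0.289, 0.269 and 0.968 CPM). Both were called higher in PD03 against thrombin, beside 9.61% of all tested genes. Krt8 was called lower in thrombin against control, and 1 of the 2 was called higher in PD03 against control. Krt18 had 3 to 18 counts per library. The 4 adipocyte markers summed to 0.653 to 1.39, 0.178 to 0.466 and 3.73 to 6.54 CPM, with Lep at 0 in a thrombin library. In PD03 libraries this sum was mostly Lep (4.54 CPM on average). Adipoq had 0 counts in every PD03 library, Plin1 3 and Cidec 3 to 6. The endothelial sum was 6.69 to 7.77, 6.36 to 8.51 and 11.1 to 12.6 CPM over 4 of 5 genes, mostly Tek (6.46, 6.17 and 9.51 CPM on average). The myeloid sum was at most 2.91 CPM and the skeletal muscle sum at most 1.62 CPM. The part of these cell types in the Fgfr3 values was not tested.

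Fgfr1 (ENSRNOG00000016050), a receptor that mesenchymal cells commonly make, was the most abundant receptor gene. Its CPM was 431, 439 and 431 in control, 473, 468 and 478 in thrombin, and 461, 433 and 446 in PD03 libraries. Thrombin libraries were above all others, and control and PD03 libraries overlapped. Thrombin against control gave a log2 fold change of 0.13 (SE 0.03, edgeR adjusted p = 0.0043), PD03 against thrombin -0.081 (SE 0.03, edgeR adjusted p = 0.046) and PD03 against control 0.044 (SE 0.03, edgeR adjusted p = 0.33). The last of these was -0.072 when libraries were scaled by their totals, so it has no settled direction. No Fgfr1 difference passed the fold threshold.

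Fgfr2 (ENSRNOG00000016374) had a CPM of 35.6, 37.6 and 39.1 in control, 39.7, 37.6 and 38.7 in thrombin, and 51.7, 52.3 and 51.1 in PD03 libraries. Control and thrombin overlapped, and all PD03 libraries lay above them. PD03 against thrombin gave a log2 fold change of 0.42 (SE 0.06, edgeR adjusted p = 1.7e-07) and PD03 against control gave 0.47 (SE 0.06, edgeR adjusted p = 3.3e-08), both past the adjusted p and under the fold threshold. Thrombin against control gave 0.047 with a 95% interval of -0.08 to 0.17 (edgeR adjusted p = 0.64). Counts per gene do not separate the IIIb and IIIc splice forms, which bind different ligands.

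Fgfrl1 (ENSRNOG00000024207) encodes a receptor-like protein that binds FGFs and lacks the tyrosine kinase domain. Its CPM was 23.6, 26.1 and 25.9 in control, 34.1, 30.4 and 28.7 in thrombin, and 39.6, 44.2 and 37.9 in PD03 libraries. The groups did not overlap and stood in the order control, thrombin, PD03. PD03 against control gave a log2 fold change of 0.69 (SE 0.08, edgeR adjusted p = 6e-10), 1.61-fold higher, and was called. The other steps passed the adjusted p only, at 0.30 for thrombin against control (SE 0.08, edgeR adjusted p = 0.0022) and 0.38 for PD03 against thrombin (SE 0.07, edgeR adjusted p = 2.8e-05). The call for PD03 against control was lost with library totals, where the log2 fold change was 0.57, and with deposited FPKM, where it was 0.53 and 0.56 with 1 and 0.1 added, and with the test against the fold threshold (adjusted p = 0.47, with 5.6e-18 to 0.47 over all alternatives).

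**Figure D3:**
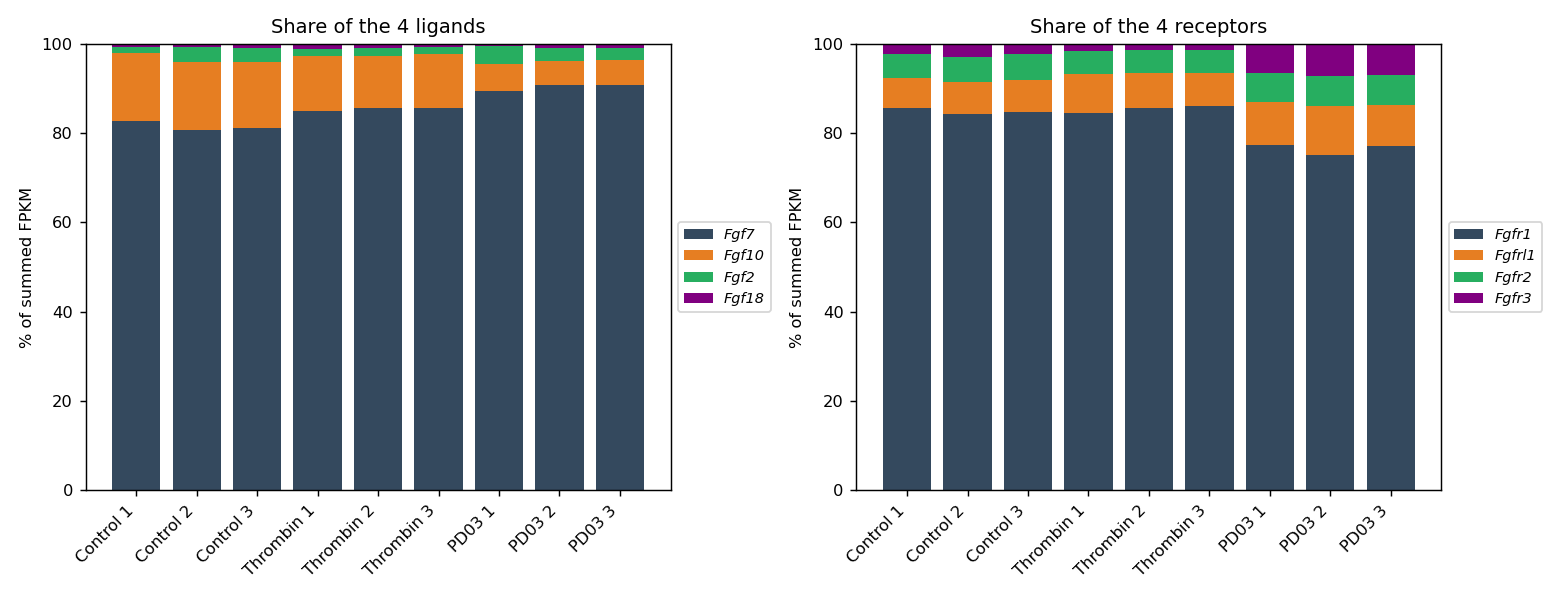
Share of summed deposited FPKM taken by each of the 4 ligands (left) and each of the 4 receptors (right) in every library, as stacked bars of 100%. Fgfr1 takes 85.0% and 85.4% of the receptor sum on average in control and thrombin libraries and 76.5% in PD03 libraries.

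Per length, Fgfr1 and Fgf7 were the leading receptor and ligand in every library. Mean FPKM in the control libraries was 125 for Fgfr1, 111 for Fgf7, 20.5 for Fgf10, 10.4 for Fgfrl1, 8.08 for Fgfr2, 3.70 for Fgfr3, 3.67 for Fgf2 and 0.905 for Fgf18. Fgf2 (2.06 to 4.47 FPKM) and Fgfr3 (3.29 to 4.52 FPKM) overlapped there, as did Fgfr1 (134 to 136 FPKM) and Fgf7 (132 to 141 FPKM) in the thrombin libraries. In the PD03 libraries Fgfr3 (10.5 to 11.1 FPKM) stood above Fgfr2 (10.2 to 10.4 FPKM) in each of the 3, and Fgf10 was down to 5.89 FPKM. Fgfr3 took 2.50% ± 0.452 of the receptor sum in control, 1.34% ± 0.126 in thrombin and 6.91% ± 0.297 in PD03 libraries (SD, n = 3). Fgf10 took 15.1%, 12.1% and 5.71% of the ligand sum in the same order, and Fgf7 took 81.5%, 85.4% and 90.3%. With 3 libraries a group, an exact two-sided permutation test of such shares cannot go below 0.10, so no test is given.

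Sequence before the transcription start was read for 7 of the 8 members from RefSeq (GRCr8), in windows of 250 bases, without Fgfr1. They are shown for Fgfr3 and Fgf10, the members with the largest changes in each direction, 5′ to 3′ in the direction of the gene, and capitals mark a GC box. The Fgfr3 window is chr14:81227210-81227459 on the minus strand and the Fgf10 window chr2:52533689-52533938 on the plus strand.
Fgfr3: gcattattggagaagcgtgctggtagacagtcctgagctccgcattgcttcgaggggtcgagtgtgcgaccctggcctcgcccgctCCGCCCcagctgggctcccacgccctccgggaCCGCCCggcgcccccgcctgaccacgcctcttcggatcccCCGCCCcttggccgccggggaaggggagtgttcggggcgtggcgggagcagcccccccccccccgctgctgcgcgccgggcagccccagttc
Fgf10: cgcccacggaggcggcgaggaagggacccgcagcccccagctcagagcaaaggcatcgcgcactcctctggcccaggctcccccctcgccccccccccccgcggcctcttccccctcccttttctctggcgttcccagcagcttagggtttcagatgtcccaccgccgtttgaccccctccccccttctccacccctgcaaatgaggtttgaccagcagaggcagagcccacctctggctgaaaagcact
Motifs were searched on both strands, namely AP-1 (TGANTCA), the cyclic AMP response element (TGACGTCA), an ETS site (CCGGAAGT) and the GC box (GGGCGG). No member window held the first 3 of these, which occurred in 6.36%, 1.70% and 3.29% of all 27457 windows of this length. A GC box occurred in 32.4% of all windows. It stood 3 times in the Fgfr3 and Fgfrl1 windows, 2 times in that of Fgfr2 and 1 time in that of Fgf18, and not in those of Fgf2, Fgf7 or Fgf10.

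Of 18 other genes of the FGF family 13 had a row, and 4 of these passed the filter, namely Fgf1, Fgf14, Fgf22 and Fgf23. Fgf23, the bone-derived hormone that lowers serum phosphate, was 42.3, 33.8 and 36.8 CPM in control, 4.52, 3.67 and 4.31 in thrombin, and 4.93, 5.51 and 6.86 in PD03 libraries. All control libraries were far above the others, and thrombin and PD03 did not overlap. Thrombin against control gave a log2 fold change of -3.18 (SE 0.12, edgeR adjusted p = 1.1e-24), a 9.05-fold lower level, and PD03 against control gave -2.71 (SE 0.11, edgeR adjusted p = 6.2e-23). PD03 against thrombin gave 0.46 (SE 0.15, edgeR adjusted p = 0.011), under the fold threshold. At a mean of 14.8 FPKM in control libraries, Fgf23 stood above 5 of the 8 members per length. At means of 1.62 and 2.09 FPKM with thrombin and PD03 it stood above Fgf18 only. In the thrombin libraries Fgf23 (1.43 to 1.76 FPKM) and Fgf18 (1.15 to 1.77 FPKM) overlapped. Fgf1, a ligand of all FGF receptors, was 3.70, 3.22 and 3.41 CPM in control, 2.68, 2.85 and 1.46 in thrombin, and 5.24, 5.51 and 4.41 in PD03 libraries. It was called higher in PD03 against thrombin at a log2 fold change of 1.11 (SE 0.21, edgeR adjusted p = 2.5e-05). Neither of its other comparisons was called, with -0.56 for thrombin against control (SE 0.22, edgeR adjusted p = 0.055) and 0.55 for PD03 against control (SE 0.20, edgeR adjusted p = 0.026). Thrombin against control became a call with library totals (-0.58, adjusted p = 0.048) and without the first or the second thrombin library (-0.66 and -0.74), with adjusted p from 0.03 to 0.35 over the libraries left out. PD03 against control became a call without the first control or the third PD03 library (0.61 and 0.64), with adjusted p from 0.016 to 0.098. Fgf14 and Fgf22 were not called in any comparison.

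Klb, the co-receptor that endocrine FGFs other than Fgf23 need, had 12 to 14 counts per library in control, 4 to 5 in thrombin and 35 to 47 in PD03 libraries. In CPM the values were 0.653, 0.884 and 0.884 in control, 0.238, 0.274 and 0.233 in thrombin, and 2.38, 2.27 and 2.88 in PD03 libraries, in 3 separate groups. Klb was called lower in thrombin against control (log2 fold change -1.66, SE 0.47, edgeR adjusted p = 0.0064) and higher in PD03 against thrombin (3.30, SE 0.39, edgeR adjusted p = 1.9e-09). Its levels were low throughout.

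**Figure D4:**
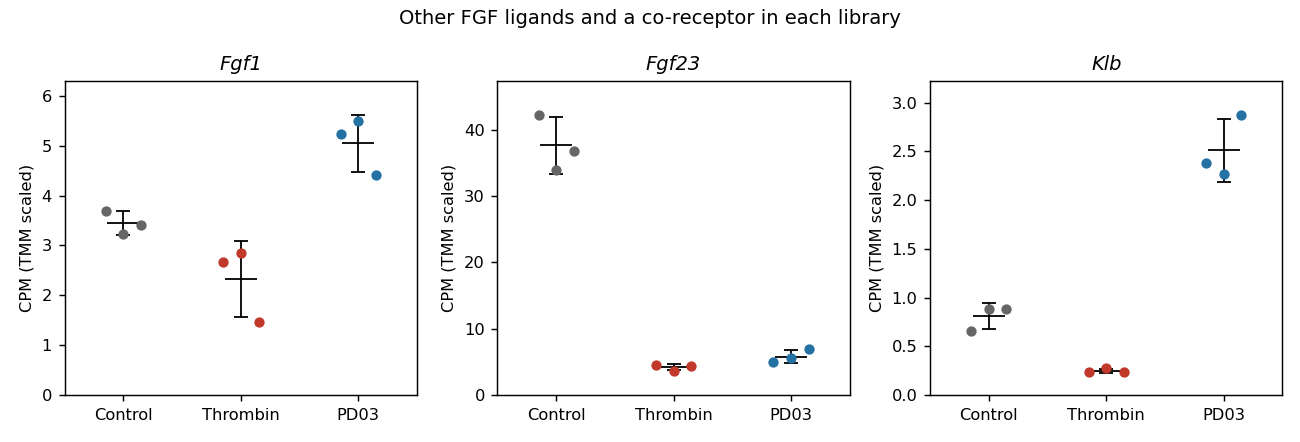
CPM of Fgf1, Fgf23 and Klb in each library, with each point a library, the horizontal line the group mean and the bar 1 SD (n = 3 per group). Fgf23 is at 33.8 to 42.3 CPM in the control libraries and at most 6.86 CPM in the others, while Klb is highest in the PD03 libraries.

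FGF-binding proteins and heparan sulphate partners, a list of heparan sulphate carriers and enzymes with the FGF carriers Fgfbp1 and Fgfbp3 and the membrane proteins Flrt2 and Flrt3, were tested as 21 of 22 genes. In thrombin against control 2 were called lower, Sulf2 (log2 fold change -1.39) and Gpc3 (-0.69), and none higher, with a median over the list of -0.085, beside 5.44% of all tested genes called lower. It was 3 lower with library totals, and also without the second control or the second thrombin library, where Flrt3 was added. In PD03 against thrombin 3 were called higher, Sulf2 (1.91), Gpc6 (1.06) and Gpc1 (0.78), and 2 lower, Flrt2 (-0.81) and Sdc4 (-0.66), with a median of 0.162. Over all tested genes 9.61% were called higher and 6.31% lower, so these counts stand near the background. Sdc4 was not called without the first PD03 library (-0.58). Sulf2 removes sulphate groups from heparan sulphate, the glypicans Gpc1, Gpc3 and Gpc6 carry its chains, and the syndecan Sdc4 does so across the membrane. Sulf2 was 162, 62.2 and 234 CPM on average in control, thrombin and PD03 libraries.

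Adaptors and kinases between the receptors and ERK were tested as 18 of 20 genes, and none was called in thrombin against control. In PD03 against thrombin Gab1, a docking protein, was called higher at 0.65, and Shc1, an adaptor, was called lower at -0.61. The Gab1 value was under the fold threshold with library totals (0.55) and without the third thrombin library (0.57). The list median was -0.021, and 1 of 18 in each direction is no more than the 9.61% and 6.31% over all tested genes.

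Feedback and readout genes of ERK signalling were tested as all 17 listed. In thrombin against control 2 were called higher, Phlda1 (log2 fold change 0.98) and Dusp4 (0.94), and none lower, with a list median of 0.045, beside 2.62% of all tested genes called higher. Without the first thrombin library 4 were also called lower, Egr1 (-0.73), Etv5 (-0.63), Spry1 (-0.61) and Il17rd (-0.59), and without the third control library Spry1 was (-0.62). In PD03 against thrombin 12 were called lower and none higher, with a list median of -0.937 where the median of all genes was 0.011 and 6.31% of all tested genes were called lower. The largest were Egr1 (-3.70), Phlda1 (-2.70), Etv4 (-2.62) and Dusp6 (-2.40). Spry1 (0.425, edgeR adjusted p = 1.5e-07) and Il17rd (0.30, edgeR adjusted p = 0.12) went the other way, under the fold threshold. Without the first thrombin library 11 were called lower, with Spry4 at -0.44 and not called. Egr1, Etv4 and Etv1 are transcription factors, and Dusp6 encodes a phosphatase that removes phosphate from ERK. In PD03 against control 12 were again called lower and none higher, with a list median of -0.872 and Dusp6 at -2.80, beside 4.07% of all tested genes called lower. Dusp4 was called higher there without the second or the third control library or the first PD03 library (0.59, 0.61 and 0.77).

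**Figure D5:**
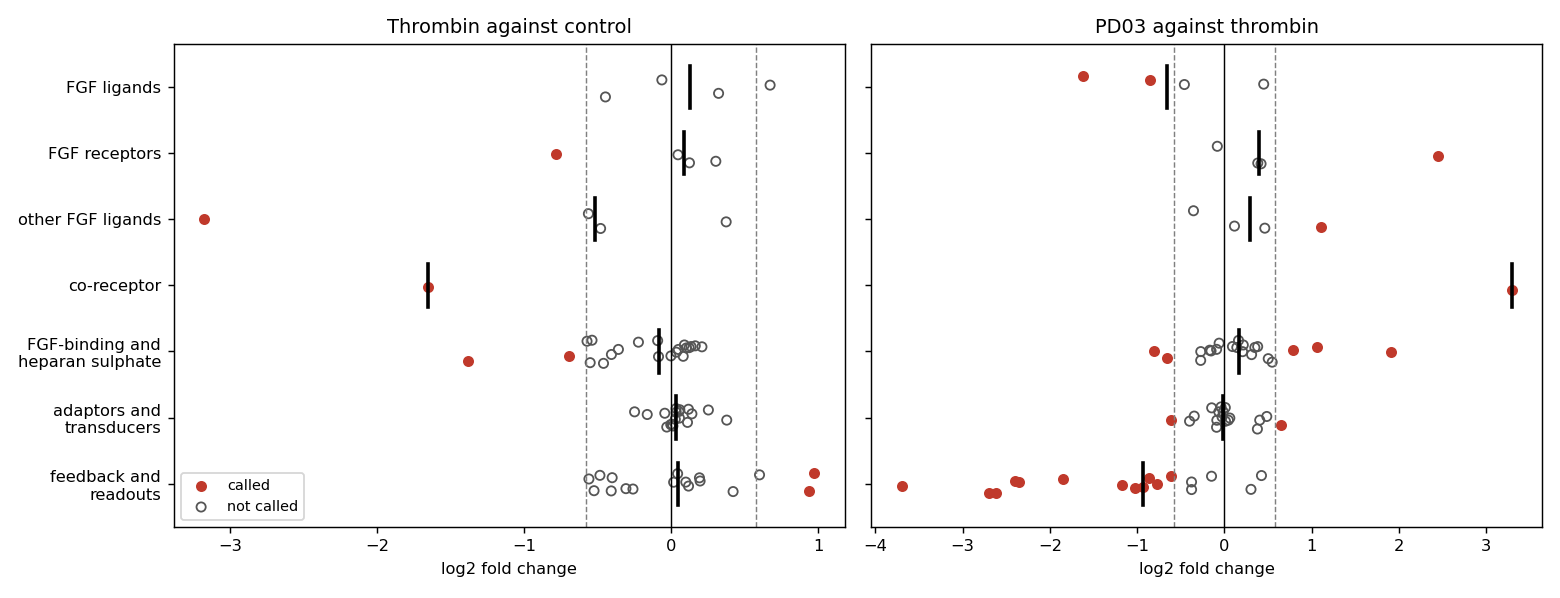
Log2 fold change of every tested gene of each list for thrombin against control (left) and PD03 against thrombin (right), filled where called, with the list median as a thick bar and dashed lines at 0.58 and -0.58. The feedback and readout genes hold 12 filled points to the left of the lower dashed line with PD03, and 2 to the right of the upper dashed line with thrombin.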

How the data were processed

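The authors made libraries from messenger RNA with the NEBNext Ultra kit and sequenced them on an Illumina HiSeq instrument. The study's methods name fastp, HISAT2, the Rnor_6.0 genome, featureCounts and DESeq2, while the submitters' processing notes name HISAT2, HTSeq 0.13.5 and mRatBN7.2, and which of these made the table could not be settled. No source used here gives the annotation release or the strand setting of the counting. The authors deposited, per gene and library, a raw count and its FPKM, and the FPKM values equal the count times 1 factor per gene length and library that follows the library total.

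Counts were used for every test but the FPKM alternatives, which used limma on log2 values. Genes passing filterByExpr (minimum count 10) were scaled by TMM and fitted in 1 edgeR quasi-likelihood model over all 9 libraries (edgeR 4.0.16, R 4.3.3), with Benjamini-Hochberg adjustment over 13256 genes. Levels are CPM, and FPKM served for levels between genes. Alternatives were RLE size factors, library totals, no filter or a mean count of at least 50, DESeq2 1.42.0, voom (limma 3.58.1), no fold threshold or 1, glmTreat against the fold threshold, FPKM with 1 or 0.1 added, only the 2 groups compared, a replicate block, and fits that dropped 1 library at a time. Same-numbered libraries deviated from their group means with correlations of -0.046 to 0.052 over 9 pairs, so the numbers were not taken as pairs. Between replicates, chi-square per degree of freedom was 1.82 to 4.04, so no 2 libraries agreed within sampling noise. The p-values measure the spread between these libraries.

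The 8 genes, and the pathway and marker lists, were chosen with earlier results of these data known. All 8 are named with every value. In the lists, the called genes are named, up to the 4 with the largest change. Motifs were searched in the 250 bases before the start, not in the 300-base windows first set, so that no transcribed base was included. The steps were tested on simulated data.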

Additional observations from a re-analysis of the deposited data

How the results depend on the processing

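Of 501 values of the 24 member log2 fold changes over 21 alternatives, 474 kept their direction and their side of the thresholds, 15 turned direction, 9 lost and 3 gained a call, and no called value turned. The settings with no fold threshold or a threshold of 1 are not among these 21. The number of members called (1 for thrombin against control and 3 for each comparison with PD03) became 4 there, and 7 against thrombin and 5 against control for PD03, with no fold threshold, where 28.7%, 49.8% and 39.9% of all tested genes were called. For thrombin against control it became 0 both with a log2 fold change above 1 and with the test against the fold threshold. Both settings gave 2 members for each comparison with PD03. For PD03 against thrombin the number was also 2 with a mean count of at least 50 and with FPKM with 1 added. For PD03 against control it was also 2 with library totals and with FPKM with 1 or 0.1 added. Leaving out 1 library gave 1 to 2, 2 to 3 and 3 to 3 members, and 6 to 8 members past the test for any difference. Fgf18 was called higher in thrombin against control without the third thrombin library (0.80, adjusted p = 0.048) or the first PD03 library (0.67, adjusted p = 0.049). Leaving aside fits that dropped 1 library and the test against the fold threshold, its adjusted p under the alternatives lay between 0.046 and 0.1. For PD03 against control, Fgfr1 turned to -0.072 with library totals and with FPKM with 1 added, -0.073 with 0.1 added and -0.042 with totals without Col1a1. Fgf2 turned to -0.11 with library totals, -0.0045 without the filter, -0.0072 with DESeq2, -0.063 with FPKM with 1 or 0.1 added and -0.080 with totals without Col1a1, and lay between -0.30 and 0.17 with 1 library left out. Fgf18 lay between -0.32 and 0.069 in the same way. The cause was not tested. As shares of raw counts in control, thrombin and PD03 libraries, Fgfr2 took 7.31%, 7.00% and 8.80%, Fgfr3 3.01%, 1.62% and 8.27%, and Fgfrl1 4.92%, 5.63% and 6.90% of the receptor sum, since counts are not divided by length. The replicate block gave 1, 3 and 3 members called and 7 past the test for any difference, and the numbers do not pair the libraries. Totals without Col1a1 and the alternatives for the any-difference test were chosen after seeing the data. Over the other pathway lists together, thrombin against control gave 6 called genes, and 6 to 11 with 1 library left out, the 11 without the first thrombin library. These lists held 4, 1, 21, 18 and 17 tested genes, the 17 being the feedback and readout genes. The counts over these lists were 6, 21 and 17 in the 3 comparisons, beside 8.06%, 15.9% and 8.97% of all tested genes. Feedback and readout genes made up 2, 12 and 12 of them. With no fold threshold the counts were 28, 41 and 33, beside 28.7%, 49.8% and 39.9%. With a log2 fold change above 1 they were 3, 12 and 10, beside 3.81%, 7.05% and 3.92%. With 18 to 54 counts per library, depth limits Fgf18.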

Other observations

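The tested genes of at least 1 CPM with the highest Pearson correlation of log2 CPM to each member over the 9 libraries are given as a description, without a p, since the 9 libraries fall into 3 treatment groups. For Fgfr3 they were Unc13a (0.9957), Pfn2 (0.9953) and Scpep1 (0.9944), and for Fgf10 they were Sfpq (0.9975), Gbp7 (0.9961) and Il18rap (0.9943). For Fgf7 they were Il1a (0.9904), an interleukin, Specc1 (0.9872) and Ccl2 (0.9851), a chemokine. For Fgfr2 they were Wbp1l (0.995), Slitrk4 (0.993) and Nkd1 (0.9929), and for Fgfr1 Dact1 (0.9825) led, for Fgfrl1 Cant1 (0.9787). The leading values for Fgf18 (Hdac4, 0.9488) and Fgf2 (Tmem205, 0.9335) were lower. The search covered 11922 genes.

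Other genes of the FGF family and a receptor under the count filter were given no test. Fgf9 had 0 to 3 counts per library in control, 1 in every thrombin library and 5 to 11 in PD03 libraries, and Fgf16 had at most 1 count in control and thrombin and 4 to 5 in PD03 libraries. Fgf13 had 6 to 8, 1 to 2 and 4 to 13 counts, and Fgfr4 had 4 to 9, 4 to 7 and 7 to 8. Fgf5 had 0 to 2, 1 to 6 and 0 to 4 counts, and Fgf11 had 2 to 6, 3 to 5 and 5 to 10. Over all 9 libraries Fgf6, Fgf8 and Fgf12 had 0 to 1 counts and Fgf21 had 0 to 3. Fgf3, Fgf4, Fgf15, Fgf17, Fgf20 and Kl had no row under these names and were not analysed here.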
